A study of Drosophila melanogaster with 30 samples.

Results

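The 8 genes *Hsp22*, *Hsp23*, *Hsp26*, *Hsp27*, *Hsp67Ba*, *Hsp67Bb*, *Hsp67Bc* and *l(2)efl* are the heat shock genes of low molecular weight of *Drosophila melanogaster* that are described here. They were taken by name from a table of counts that held 14326 genes. *Hsp67Bb* was listed there as *CG4456* and was matched through its RefSeq synonym, and the other 7 were matched by symbol. All 8 passed the filter on low counts, as did 13190 genes in total.

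Each library was made from a pool of 5 male flies, whole bodies at an age of 1 day. Group 4 held 10 libraries of *pink1B9* flies that were able to fly. Group 3 held 10 libraries of *pink1B9* flies that were not able to fly and that came from the parent pairs of group 4, with no library of one group tied to a library of the other. Group 2 held 8 libraries of *pink1B9* flies from parent pairs without any flying offspring, and group 1 held 2 libraries of flying *pink1RV* controls. *pink1B9* is a null allele present in every cell, and both stocks carry the marker *w*. The loss of Pink1 and any other difference between the 2 stocks cannot be told apart, and in whole-body RNA neither can fewer cells of a type and less RNA per cell. The comparisons asked which transcripts differ between mutant and control flies, and which differ between mutants that can and cannot fly.

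Small heat shock proteins are chaperones that bind unfolding proteins without using ATP and hold them until other chaperones of the Hsp70 class can refold them or pass them on for degradation. Most share an alpha-crystallin domain and assemble into oligomers. In flies their genes are switched on by heat shock factor under stress, and several are also switched on by ecdysone at metamorphosis, in the germ line and during ageing. Hsp22 resides in the mitochondrial matrix, Hsp23 and Hsp26 in the cytosol and Hsp27 mainly in the nucleus. Pink1 is a mitochondrial kinase that marks damaged mitochondria for removal.

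Of these genes, 7 lie close together on chromosome arm 3L at cytological position 67B, between positions 9371511 and 9385694 of the BDGP6.54 annotation, a span of 14184 bases. *Hsp67Bc* occupies 9371511 to 9372497 on the minus strand. *Hsp67Bb* (9372722 to 9374964) and *Hsp22* (9372931 to 9374964) follow on the plus strand and share 2034 bases, and 1 spliced transcript of 1900 bases is annotated for both. Reads from the common exons can be divided between these 2 genes only by estimation, so their separate values are uncertain. *Hsp26* (9376418 to 9377427) and *Hsp67Ba* (9377802 to 9379534) lie on the minus strand, and *Hsp23* (9381882 to 9382765) and *Hsp27* (9384063 to 9385694) on the plus strand. *Hsp67Ba* shares 1375 bases with the antisense RNA *asRNA:CR43481*, and *Hsp27* shares 49 bases with a pseudogene on the other strand. *l(2)efl* lies apart, on 2R from 23684651 to 23685543, and all of its 893 bases are inside *St3* on the opposite strand. The library kit keeps the strand, but the sources used here do not say whether the counting used it, and a contribution of these opposite-strand partners was not tested.

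Total counts were 6434252 to 38330421 per library with a median of 19636778. *Pink1* was at 42.5 to 101 CPM (counts scaled to a common library size with TMM factors) in the 28 mutant libraries, against 221 to 270 CPM in the 2 controls. The smallest count of any of the 8 genes in a library was 41, for *Hsp67Bc*, and *Hsp67Ba* had 90 to 450 counts, while each of the other 6 genes had at least 389 counts in every library. Replicate 4 of group 4 stood apart, with a summed level of 6622 CPM over 18 ovary and eggshell genes although all flies were labelled male, against 14.9 to 24.2 CPM in the other 9 libraries of its group. Of the libraries of groups 3 and 4, 6 carry the tissue label human skin, and they were counted on the same fly genes as the others.

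*Hsp22* and *Hsp67Bb* rose in each of the 3 mutant groups against *pink1RV* controls, and *Hsp22* was the most changed of the 8 genes. Group 4 had 4 of the 8 genes past the threshold of adjusted p under 0.05 against group 1 (edgeR), and all 4 rose: *Hsp22*, *Hsp67Bb*, *Hsp26* and *Hsp27*. Of all genes tested, 33.2% passed in that comparison, of which 17.5% of all genes rose and 15.7% fell. In group 3, 3 genes rose, *Hsp22*, *Hsp67Bb* and *Hsp67Bc*, where 26.5% of all genes passed, 14.2% higher and 12.3% lower. In group 2, 4 genes rose, *Hsp22*, *Hsp67Bb*, *Hsp23* and *Hsp67Bc*, where 20.2% passed, 10.7% higher and 9.52% lower. None of the 8 genes fell in any of these comparisons. In all mutants as 1 group, *Hsp22*, *Hsp67Bb*, *Hsp23* and *Hsp27* rose, where 30.9% of all genes passed, 16.1% higher and 14.8% lower. In that comparison the call of *Hsp27* (adjusted p = 0.0451) held in 18 of the 30 fits that left out 1 library, and was lost without either control (adjusted p = 0.144 without replicate 1 and 0.32 without replicate 2) and without the libraries labelled human skin (adjusted p = 0.0611). The call of *Hsp23* (adjusted p = 0.0418) was lost without either control (adjusted p = 0.207 and 0.226), without replicate 5 of group 2 (adjusted p = 0.0515) and without the libraries labelled human skin (adjusted p = 0.0541). The median log2 fold change of the 8 genes was 1.01 in group 4, 0.90 in group 3 and 0.92 in group 2, and the medians of all genes were 0.08, -0.01 and -0.00 in the same order. All 3 comparisons share the 2 control libraries, and each control decides some of the calls: without replicate 1 of group 1 the counts were 2, 2 and 2 in groups 4, 3 and 2, and without replicate 2 they were 1, 2 and 2. Without replicate 4 of group 4 they were 4, 5 and 6. The shares of all genes called in these fits are not given here, and whether such moves are particular to the 8 genes was not tested.

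**Figure D1:**
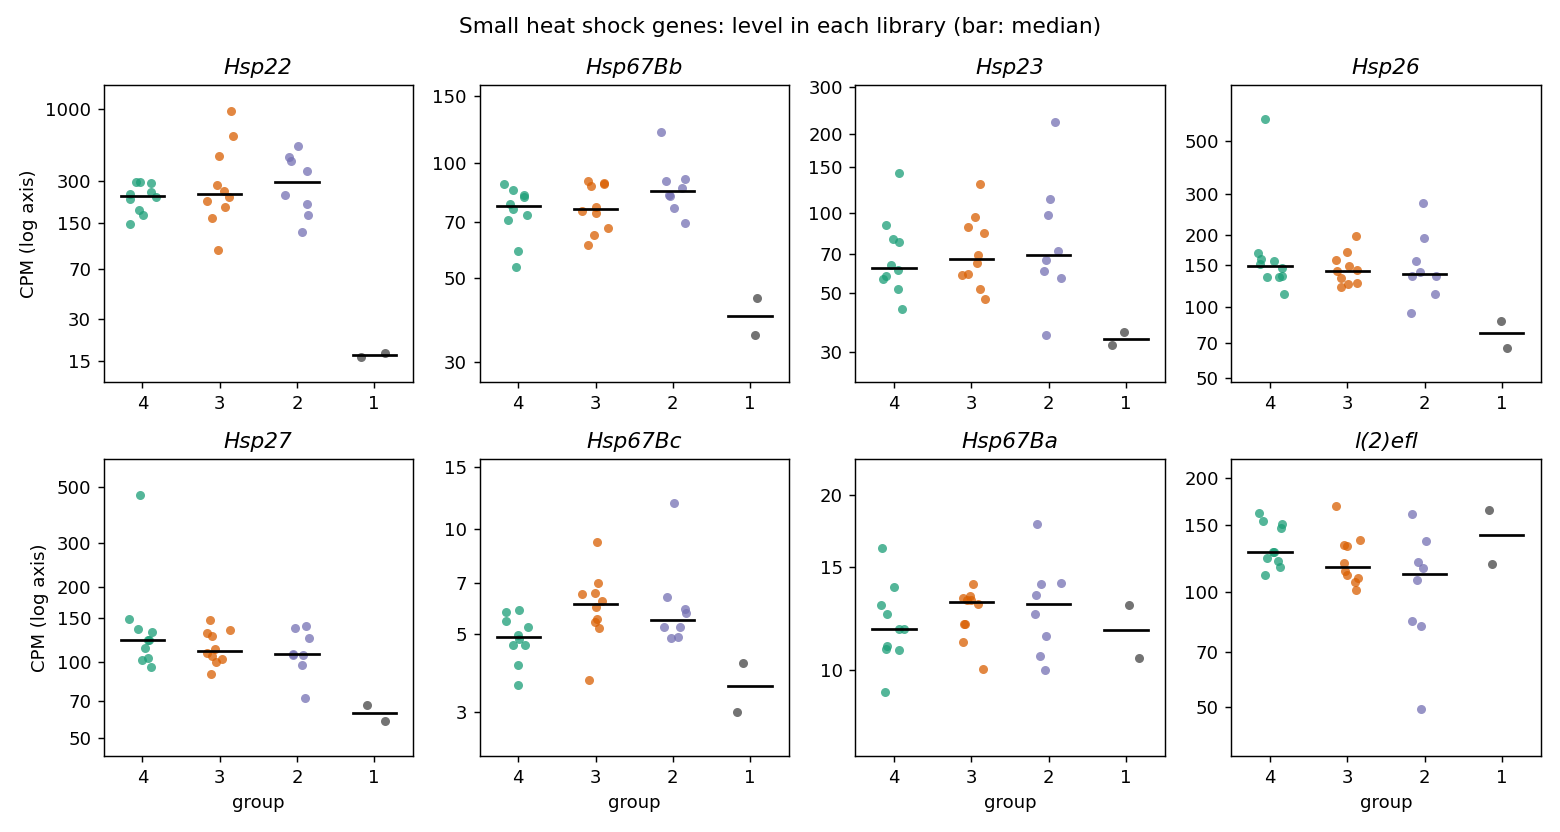
Level of each of the 8 genes in every library, in CPM on a log axis, with groups 4, 3, 2 and 1 from left to right, 1 point per library and a bar at the median of the group. All 28 mutant libraries lie above both controls for *Hsp22*, *Hsp67Bb*, *Hsp26* and *Hsp27*, and the groups overlap for *Hsp67Ba* and *l(2)efl*.

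Separation by single library did not follow the order of the calls in each group. For 4 genes, *Hsp22*, *Hsp67Bb*, *Hsp26* and *Hsp27*, each of the 28 mutant libraries was above both controls, which held for 7.75% of all genes, while 6.93% were below both controls in all 28. *Hsp23* was above both controls in 27 mutant libraries, *Hsp67Bc* in 25, *Hsp67Ba* in 13 and *l(2)efl* in 1.

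*Hsp22*, the mitochondrial member, had the widest separation. Its level was 147 to 296 CPM with a median of 236 in group 4. In group 3 it was 95.1 to 976 CPM with a median of 242, and in group 2 it was 129 to 545 CPM with a median of 298. The controls were at 16.2 and 17.1 CPM. The lowest mutant library, replicate 3 of group 3, was thus 5.56 times as high as the higher control. Group means were 233 ± 52.9 CPM in group 4 (SD, n = 10), 351 ± 270 CPM in group 3 (n = 10) and 314 ± 150 CPM in group 2 (n = 8), against 16.7 ± 0.67 CPM in group 1 (n = 2). The log2 fold change was 3.81 in group 4 (standard error 0.73, adjusted p = 0.000396), 4.39 in group 3 (standard error 0.76, adjusted p = 0.000188) and 4.24 in group 2 (standard error 0.75, adjusted p = 0.000278). Among the 13190 genes tested, *Hsp22* ranked 106 by log2 fold change in group 4, 50 in group 3 and 59 in group 2. These calls held without any 1 of the 30 libraries, with an adjusted p of at most 0.0226.

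The libraries of group 4 were close together for *Hsp22*, with a coefficient of variation of 22.7%, whereas it was 77.1% in group 3 and 47.8% in group 2. The highest levels were those of replicate 5 of group 3, at 976 CPM, replicate 4 of group 3, at 638 CPM, and replicate 1 of group 2, at 545 CPM. No library of group 4 exceeded 296 CPM, and this difference in spread was not tested.

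*Hsp67Bb* encodes a protein with a rhodanese domain and not an alpha-crystallin domain, and is counted with the family because it is induced by heat within the cluster. Its level was 53.6 to 88.4 CPM with a median of 77.1 in group 4. In group 3 it was 61.2 to 90.1 CPM (median 75.9), in group 2 69.9 to 121 CPM (median 84.4), and the controls were at 35.4 and 44.3 CPM. No mutant library overlapped the controls, and the 3 mutant groups overlapped each other almost wholly. The log2 fold change was 0.91 in group 4 (standard error 0.19, adjusted p = 0.000726), 0.96 in group 3 (standard error 0.19, adjusted p = 0.000614) and 1.13 in group 2 (standard error 0.19, adjusted p = 0.000171). Without replicate 2 of group 1 the value in group 4 was 0.74 and missed the threshold (adjusted p = 0.0543). When the counts of *Hsp22* and *Hsp67Bb* were added together, the log2 fold change of the sum was 2.45 in group 4, 2.92 in group 3 and 2.83 in group 2, with an adjusted p of 0.00135, 0.000492 and 0.000711 in the same order. For plain counts the sum does not depend on how reads were divided between these 2 genes. For length-scaled counts it can, and the sources do not state which kind was deposited.

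*Hsp23*, a cytosolic member, was at 43.8 to 141 CPM with a median of 62.5 in group 4. In group 3 it was at 47.5 to 129 CPM (median 67.2), in group 2 at 34.9 to 221 CPM (median 69.6), and in the controls at 31.8 and 35.6 CPM. Only replicate 3 of group 2, at 34.9 CPM, was not above both controls. The log2 fold change was 1.11 in group 4 (standard error 0.47, adjusted p = 0.0696), 1.15 in group 3 (standard error 0.47, adjusted p = 0.0676) and 1.43 in group 2 (standard error 0.49, adjusted p = 0.0384). In the fit of all 30 libraries the threshold was passed in group 2 alone, and *Hsp23* was not called between the mutant groups. That call was lost without replicate 1, 4 or 5 of group 2 (1.10, 1.37 and 1.36, adjusted p = 0.0528, 0.0525 and 0.0536). It was also lost without replicate 1 or 2 of group 1 (adjusted p = 0.189 and 0.218). Without replicate 1 of group 2, which was the highest, *Hsp23* passed in group 4 (1.11, adjusted p = 0.0313) and in group 3 (1.15, adjusted p = 0.0317). It also passed in both without replicate 3 of group 2 (adjusted p = 0.0488 and 0.0471). Fitted with group 1 alone, it passed in group 4 (adjusted p = 0.0455) and group 3 (adjusted p = 0.0169) but not in group 2 (adjusted p = 0.129). DESeq2 also called it in groups 4 and 3 (adjusted p = 0.0287 and 0.0275). Without the libraries labelled human skin, the call in group 2 was lost (adjusted p = 0.0604).

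*Hsp26* and *Hsp27* are made in many tissues and are also stored by nurse cells in the ovary. *Hsp26* was at 113 to 617 CPM with a median of 149 in group 4, at 122 to 198 CPM (median 142) in group 3 and at 94.0 to 274 CPM (median 138) in group 2, against 67.1 and 87.4 CPM in the controls. *Hsp27* was at 95.8 to 467 CPM (median 122) in group 4, at 89.4 to 147 CPM (median 111) in group 3 and at 71.7 to 139 CPM (median 107) in group 2, against 58.4 and 67.3 CPM in the controls. For both genes every mutant library was above both controls, by the smallest margin in replicate 3 of group 2, and the medians of the mutant groups were close together. The highest library was in both cases replicate 4 of group 4, the one with ovary transcripts.

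Against group 1, *Hsp26* had a log2 fold change of 1.31 in group 4 (standard error 0.46, adjusted p = 0.0298), 0.92 in group 3 (standard error 0.45, adjusted p = 0.12) and 1.01 in group 2 (standard error 0.45, adjusted p = 0.112). *Hsp27* had 1.30 in group 4 (standard error 0.40, adjusted p = 0.0161), 0.88 in group 3 (standard error 0.39, adjusted p = 0.0907) and 0.83 in group 2 (standard error 0.40, adjusted p = 0.133). Only the group that holds the library with ovary transcripts passed the threshold. Without that library *Hsp26* still rose in group 4, with a smaller log2 fold change of 0.87 (adjusted p = 0.00725), and so did *Hsp27* (0.90, adjusted p = 0.00114). It then also passed in group 3, where *Hsp26* had 0.88 (adjusted p = 0.00822) and *Hsp27* 0.84 (adjusted p = 0.00233), and in group 2, where *Hsp26* had 0.97 (adjusted p = 0.00616) and *Hsp27* 0.79 (adjusted p = 0.00489). Leaving out a single library of group 4 thus changed whether these genes passed in groups 3 and 2. All groups share 1 estimate of the spread in that fit, and its part in this change was not tested. In group 4 the calls were lost without replicate 1 of group 1 (*Hsp26* 1.53, adjusted p = 0.091; *Hsp27* 1.42, adjusted p = 0.0756) and without replicate 2 of group 1 (*Hsp26* 1.12, adjusted p = 0.266; *Hsp27* 1.19, adjusted p = 0.183). They were also lost when only groups 4 and 1 were fitted (adjusted p = 0.137 for *Hsp26* and 0.115 for *Hsp27*). Both genes passed in group 3 fitted with group 1 alone (adjusted p = 0.00346 and 0.00353). In group 2 fitted with group 1 alone, *Hsp27* passed (adjusted p = 0.0414) and *Hsp26* did not.

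*Hsp67Bc* acts with the BAG-domain protein Starvin in clearing misfolded proteins through autophagy, as HSPB8 does in mammals. It was the least abundant of the 8 genes. Its level was 3.58 to 5.85 CPM with a median of 4.91 in group 4, 3.71 to 9.14 CPM (median 6.12) in group 3 and 4.87 to 11.8 CPM (median 5.50) in group 2, against 3.00 and 4.13 CPM in the controls. The mutants were above both controls in all 8 libraries of group 2, in 9 of 10 of group 3 and in 8 of 10 of group 4. The log2 fold change was 0.46 in group 4 (standard error 0.28, adjusted p = 0.197), 0.78 in group 3 (standard error 0.28, adjusted p = 0.0408) and 0.81 in group 2 (standard error 0.29, adjusted p = 0.0453). Both calls were close to the threshold: that in group 3 held in 24 of the 30 fits that left out 1 library, and that in group 2 in 18. Without replicate 1 of group 2, at 11.8 CPM, the value in group 2 was 0.61 (adjusted p = 0.0625). Without replicate 2 of group 1 it was 0.59 in group 2 (adjusted p = 0.408) and 0.56 in group 3 (adjusted p = 0.382), and without replicate 1 of group 1 it was 1.08 (adjusted p = 0.0838) and 1.05 (adjusted p = 0.0784) in these groups.

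*Hsp67Ba* and *l(2)efl* did not pass the threshold against the controls in any group. *Hsp67Ba*, another alpha-crystallin gene of the cluster, was at 9.17 to 16.2 CPM (median 11.7) in group 4, at 10.003 to 14.0 CPM (median 13.1) in group 3 and at 9.96 to 17.8 CPM (median 13.0) in group 2, against 10.5 and 12.9 CPM in the controls. Its log2 fold change was 0.05 in group 4, 0.10 in group 3 and 0.15 in group 2, with intervals of 2 standard errors each way from -0.31 to 0.40, from -0.26 to 0.46 and from -0.22 to 0.51 in that order. Without replicate 2 of group 1 the values turned negative in groups 4 and 3 (-0.11 and -0.05). The libraries of every mutant group lay on both sides of the controls. *l(2)efl*, the fly counterpart of alpha-B-crystallin that is abundant in muscle, was at 111 to 162 CPM (median 128) in group 4, at 102 to 168 CPM (median 117) in group 3 and at 49.5 to 160 CPM (median 112) in group 2, against 119 and 165 CPM in the controls. Its log2 fold changes were -0.08 (interval -0.56 to 0.40), -0.20 (-0.68 to 0.27) and -0.41 (-0.89 to 0.07) in groups 4, 3 and 2, and without replicate 1 of group 1 they were 0.20 in group 4 and 0.08 in group 3. Of the mutant libraries, 12 were below both controls for this gene and 1 was above both.

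**Figure D2:**
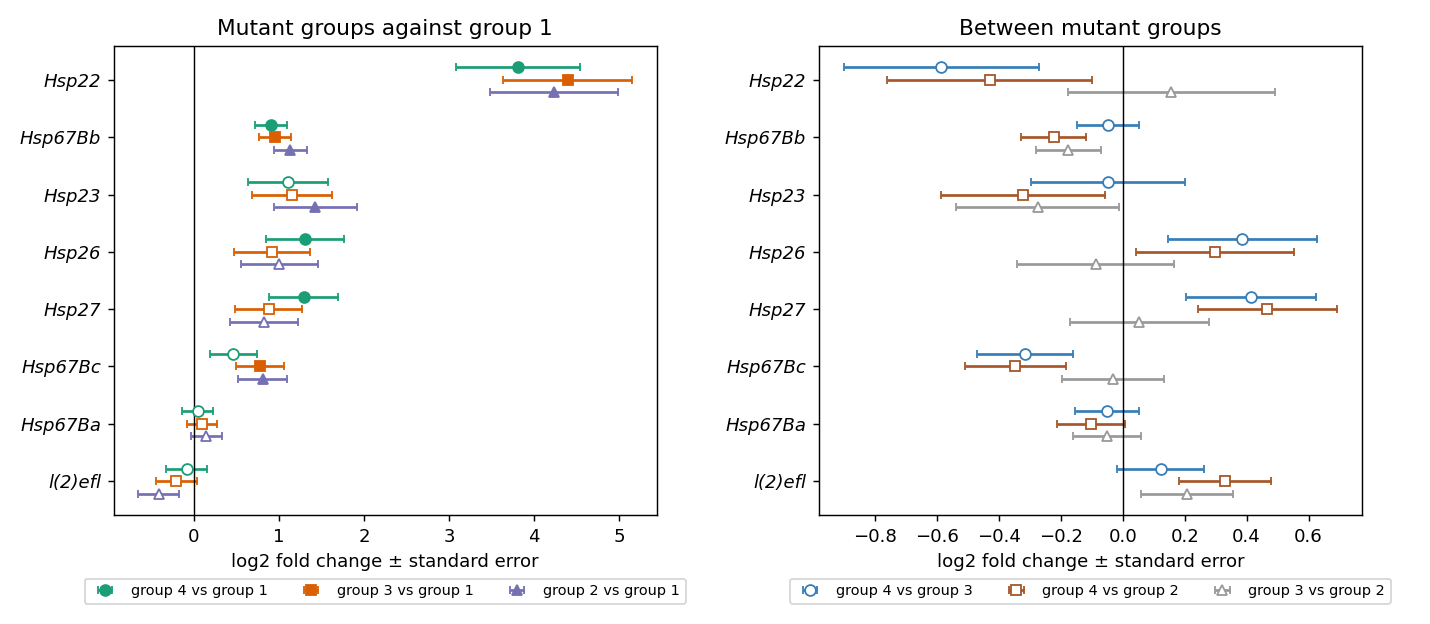
Log2 fold changes of the 8 genes with their standard errors from edgeR, for mutant groups against group 1 (left) and between mutant groups (right); filled symbols have an adjusted p under 0.05. *Hsp22* lies between 3.81 and 4.39 against group 1, the other called genes lie between 0.78 and 1.43, and no symbol on the right is filled.

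The order of the levels also differed between mutants and controls. Per kilobase of mean transcript length in the annotation, *l(2)efl* was highest in group 1, at 192 ± 43.9 CPM per kilobase, followed by *Hsp26* at 78.5 ± 14.6, *Hsp27* at 44.1 ± 4.43, *Hsp67Bb* at 43.2 ± 6.84 and *Hsp23* at 38.9 ± 3.08, and then by *Hsp22* at 11.6 ± 0.47, *Hsp67Ba* at 6.75 ± 1.01 and *Hsp67Bc* at 3.61 ± 0.81 CPM per kilobase. *Hsp27*, *Hsp67Bb* and *Hsp23* did not differ beyond their spread in the controls. In group 3, *Hsp22* had the highest mean at 244 ± 188 CPM per kilobase, with *l(2)efl* at 167 ± 27.2, and in group 2 it had the highest mean at 219 ± 105, with *Hsp26* at 158 ± 57.5, and in neither group did these neighbours differ beyond their spread. In group 4 it was at 163 ± 36.9, below *Hsp26* at 194 ± 153 and *l(2)efl* at 182 ± 24.0 CPM per kilobase, and these 3 did not differ beyond their spread. Without replicate 4 of group 4, *Hsp22* was at 158 ± 35.7 and *Hsp26* at 146 ± 17.3 CPM per kilobase, so that their order turned. *Hsp22* was in the sixth place in controls, and *Hsp67Ba* and *Hsp67Bc* had the lowest levels in every group. The length of *Hsp22* used here includes the transcript shared with *Hsp67Bb*.

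Between mutants that could and could not fly, no member of the family passed the threshold. Group 4 against group 3 gave 0 of the 8 genes with edgeR, DESeq2 and limma-voom, and 0 genes had an unadjusted p under 0.05. Of all genes, 0% were called by edgeR and 1055 had an unadjusted p under 0.05, and DESeq2 called 1 gene and limma-voom 0. *Hsp22* had a log2 fold change of -0.59 (interval -1.22 to 0.04, adjusted p = 0.632), *Hsp67Bc* -0.32 (interval -0.63 to -0.01, adjusted p = 0.622) and *Hsp27* 0.41 (interval -0.01 to 0.84, adjusted p = 0.626). The remaining values were 0.39 for *Hsp26*, 0.12 for *l(2)efl* and -0.05 for each of *Hsp23*, *Hsp67Ba* and *Hsp67Bb*. Without replicate 4 of group 4, *Hsp26* had -0.01 (adjusted p = 0.99) and *Hsp27* 0.06 (adjusted p = 0.903).

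Group 4 against group 2 likewise gave 0 of the 8 genes with all 3 tools, and 0% of all genes with edgeR, where 1593 genes had an unadjusted p under 0.05; DESeq2 called 3 genes and limma-voom 0. Of the 8 genes, 4 had an unadjusted p under 0.05 there. These were *l(2)efl* (0.33, adjusted p = 0.383), *Hsp67Bc* (-0.35, adjusted p = 0.405), *Hsp67Bb* (-0.22, adjusted p = 0.407) and *Hsp27* (0.47, adjusted p = 0.411), and *Hsp27* had 0.11 without replicate 4 of group 4. Group 3 against group 2 gave 0 of the 8 genes with all 3 tools and 0% of all genes, with 0 of the 8 genes and 243 of all genes at an unadjusted p under 0.05. The sizes there ran from -0.28 for *Hsp23* to 0.21 for *l(2)efl*.

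When groups 2 and 3 were joined as non-flying mutants, 0.326% of all genes were called between the flying and the non-flying mutants and 0 of the 8 genes were. The called genes were all higher in the flying mutants. Among them were 11 of 14 tested ovary and eggshell genes, a list whose summed level was high in replicate 4 of group 4. DESeq2 and limma-voom called 0 of all genes, and so 0 of the 8. The smallest unadjusted p-values were 0.0217 for *Hsp27* (0.44, standard error 0.18) and 0.0216 for *Hsp67Bc* (-0.33, standard error 0.14), and both had an adjusted p of 0.306. Without replicate 4 of group 4, *Hsp27* had 0.08. *Hsp67Bc* kept a negative value in each fit that left out 1 library, from -0.36 to -0.25. For *Hsp67Bc* in group 4 against group 3, the difference in mean log2 level was -0.36 among the 7 libraries of each group labelled whole body (two-sided exact permutation test, p = 0.00291, not adjusted for the 16 differences computed). It was -0.01 among the 3 libraries of each group labelled human skin (exact p = 1), where the smallest p the design allows is 0.1. This test treats libraries from common parent pairs as independent. Among the libraries labelled whole body, its p for the other genes ran from 0.226 for *l(2)efl* to 0.669 for *Hsp26*. The edgeR fit of all libraries gave *Hsp67Bc* an adjusted p of 0.622 in group 4 against group 3.

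An F-test over 3 kinds of flies, the controls, the mutants able to fly and the mutants unable to fly, called *Hsp22* (adjusted p = 0.000285), *Hsp67Bb* (adjusted p = 0.000692), *Hsp27* (adjusted p = 0.0223) and *Hsp67Bc* (adjusted p = 0.0265). This was 4 of the 8 genes, against 27% of all genes. The test asks for any difference among the 3 kinds of flies. In the contrast of control flies and flying mutants, weighted equally, against non-flying mutants, *Hsp22* had -2.42, *Hsp67Bb* -0.58, *Hsp67Bc* -0.56 and *Hsp27* -0.21. In the contrast of flying with non-flying mutants they had -0.52, -0.13, -0.33 and 0.44. Both contrasts share the flying mutants and the non-flying mutants and are not independent. Without replicate 1 of group 1 the test called 2 of the 8 genes, and without replicate 2 it called 1, *Hsp22*.

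**Figure D3:**
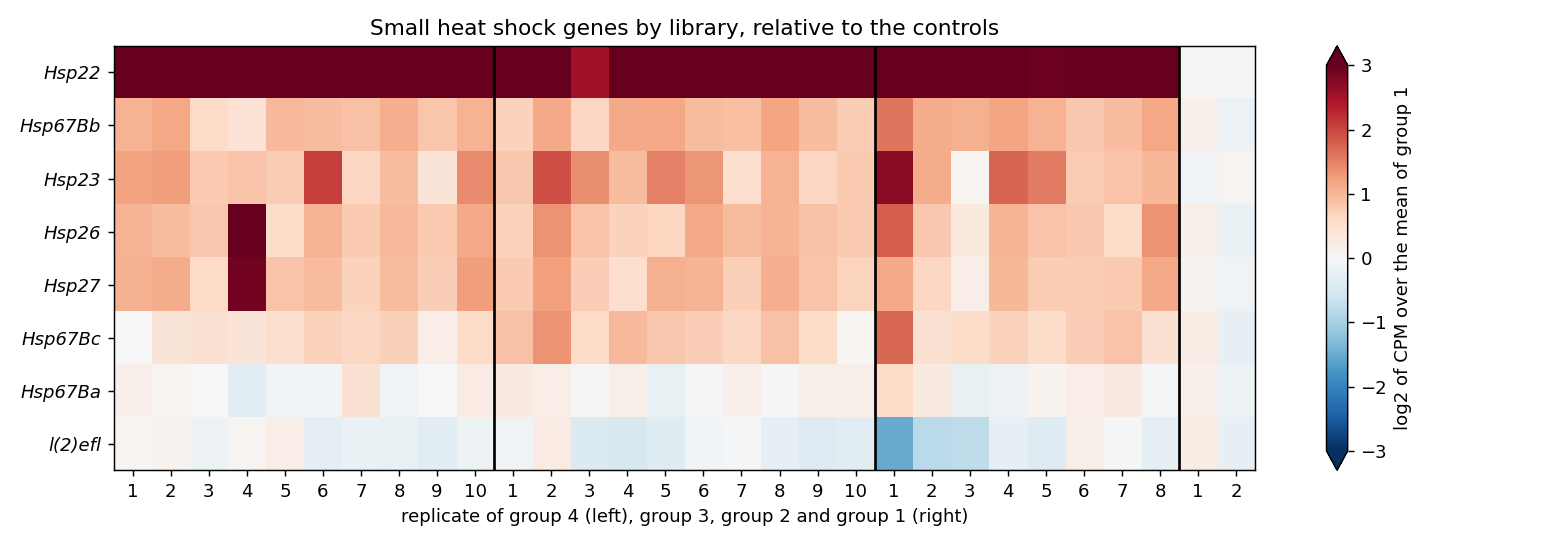
Each library's level of the 8 genes as log2 of its CPM over the mean of group 1, with groups 4, 3, 2 and 1 from left to right and replicates in label order; the colour scale stops at 3 above and below 0, which *Hsp22* exceeds in nearly all mutant libraries. Replicate 4 of group 4 stands out for *Hsp26* and *Hsp27* alone, and replicate 1 of group 2 for *Hsp23*, *Hsp26*, *Hsp67Bb* and *Hsp67Bc* with a low *l(2)efl*.

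A few libraries had profiles of their own. In replicate 4 of group 4, *Hsp26* was at 617 CPM, 4.29 times the mean of the other 9 libraries of the group (144 ± 17.0 CPM), and *Hsp27* was at 467 CPM, 3.90 times their mean (120 ± 17.6 CPM). It had 1423 CPM of the eggshell gene *Cp38* and 498 CPM of the oocyte gene *osk*, of which no other mutant library exceeded 2.21 and 0.42 CPM. *Hsp67Bb* at 53.6 CPM and *Hsp67Ba* at 9.17 CPM were the lowest of the 28 mutant libraries there, and *Hsp22*, *Hsp23*, *Hsp67Bc* and *l(2)efl* were within the range of the other 9. Other chaperone genes were also at their highest in it, among them *Hsp83* at 2651 CPM, the Hsp70 partner gene *Stip1* at 224 CPM and the heat shock factor gene *Hsf* at 104 CPM. Others went the opposite way: *Hsc70-1* (263 CPM) and *Hsc70-2* (293 CPM) were the lowest of the 28 mutant libraries, and *Hsp68* and *mrj* ranked 25. Of the 8 small heat shock genes, *Hsp26* and *Hsp27* alone were above the range of the other 9 libraries in the library with ovary transcripts.

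Replicate 1 of group 2 had a different profile. It was the highest of the 28 mutant libraries for *Hsp23* (221 CPM), *Hsp67Ba* (17.8 CPM), *Hsp67Bb* (121 CPM) and *Hsp67Bc* (11.8 CPM), the second for *Hsp26* (274 CPM), the third for *Hsp22* (545 CPM) and the fifth for *Hsp27* (137 CPM). It was the lowest for *l(2)efl*, at 49.5 CPM against 81.6 to 168 CPM in the other 27. The heat-inducible chaperone gene *Hsp68* was also highest in it, at 164 CPM against 62.4 to 117 CPM in the others, and so were *stv*, which encodes Starvin (243 CPM against 93.3 to 167), and the autophagy receptor gene *ref(2)P* (588 CPM against 229 to 459). *Hsp70Bb*, *Hsp70Bbb* and *Hsp70Bc* were highest in it as well, at 192, 131 and 105 CPM. Reads of these near-identical copies can be divided only with uncertainty. Of the other cytosolic heat shock and co-chaperone genes, *Hsf*, *Hsp83*, *Hsc70-4*, *Hsc70Cb*, *Droj2*, *Stip1* and *Hsp70Ab* ranked 2 among the 28. The rest ranked lower: *Hsp70Aa* 7, *DnaJ-1* 8, *Cdc37* 9, *Hsc70-2* 11, *Hsc70-1* 13, *p23* 15, and *mrj*, *Sgt* and *STUB1* 17 each. For each of the 7 genes described here at 67B, this library was thus among the 5 highest of the 28. For *CG4461*, an alpha-crystallin gene that also lies in the cluster, it ranked 9 (122 CPM).

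Replicate 5 of group 3 had the highest *Hsp22*. *Hsp22* was at 976 CPM, 3.47 times the mean of the other 9 libraries of group 3, while *Hsp67Bb* ranked 5, *Hsp23* 6, *Hsp67Bc* 7, *Hsp27* 9, *l(2)efl* 21, *Hsp26* 25 and *Hsp67Ba* 26 among the 28 mutant libraries. The constitutive Hsp70 gene *Hsc70-1* was also highest there, at 438 CPM against at most 363 CPM in the other 27, and *Hsp70Bc* ranked 5. *Hsp68* was at its lowest, at 62.4 CPM, and *Hsp83* ranked 27. The heat-inducible genes were thus spread over both ends of the ranking in this library.

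Across the 28 mutant libraries, the 28 pairs among the 8 genes were correlated on the log2 scale of CPM plus 1. Libraries of groups 3 and 4 come from common parent pairs, so they are not fully independent. *Hsp26* and *Hsp27* were the most closely related pair, with a Pearson's r of 0.91 (permutation test, adjusted p = 0.00028) and a Spearman's rho of 0.74 (permutation test, adjusted p = 0.00056). The relation did not rest on the library with ovary transcripts, since r was 0.72 without it and 0.77 without the 2 libraries farthest from the median of *Hsp26*. Within groups, r was 0.97 in group 4, 0.65 in group 3 and 0.86 in group 2. *Hsp23* and *Hsp67Bb* also passed in both coefficients (r = 0.52, permutation test, adjusted p = 0.045; rho = 0.53, permutation test, adjusted p = 0.031), with r = 0.36 without the 2 libraries farthest in *Hsp23* and 0.33, 0.36 and 0.78 within groups 4, 3 and 2.

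*Hsp23* was related to *Hsp26* and *Hsp27* by rank. With *Hsp26*, rho was 0.55 (permutation test, adjusted p = 0.027) and r was 0.36 (permutation test, adjusted p = 0.18). With *Hsp27*, rho was 0.58 (permutation test, adjusted p = 0.02) and r was 0.27 (permutation test, adjusted p = 0.25). Without replicate 4 of group 4, r was 0.73 with *Hsp26* and 0.65 with *Hsp27*. *Hsp67Bc* passed by Pearson's r alone, with *Hsp23* (r = 0.58, permutation test, adjusted p = 0.029; rho = 0.35, permutation test, adjusted p = 0.21) and with *Hsp67Bb* (r = 0.52, permutation test, adjusted p = 0.045; rho = 0.36, permutation test, adjusted p = 0.21). No relation of *Hsp22* with *Hsp23*, *Hsp26* or *Hsp27* passed, with r = 0.06 for *Hsp23*, -0.04 for *Hsp26* and 0.02 for *Hsp27* (permutation test, adjusted p = 0.88, 0.95 and 0.96). Its Spearman's rho was -0.04, -0.24 and 0.01 (permutation test, adjusted p = 0.91, 0.44 and 0.99). For *Hsp22* and *Hsp67Bb*, which share exons, r was 0.45 (permutation test, adjusted p = 0.078) and rho 0.37 (permutation test, adjusted p = 0.21).

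**Figure D4:**
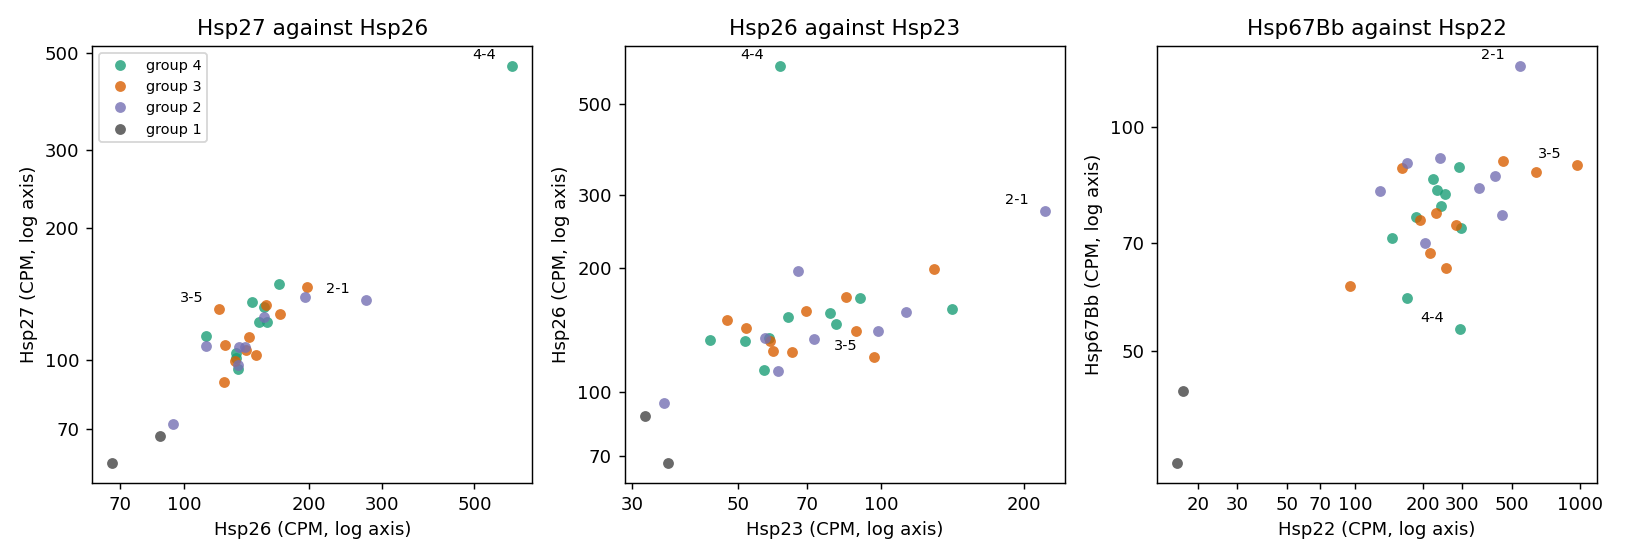
Levels of *Hsp27* against *Hsp26*, of *Hsp26* against *Hsp23* and of *Hsp67Bb* against *Hsp22*, in CPM on log axes, with 1 point per library coloured by group; the labels give group and replicate of 3 libraries. *Hsp26* and *Hsp27* lie along a line with replicate 4 of group 4 at its far end, whereas that library leaves the cloud in the plot of *Hsp26* against *Hsp23*.

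The genes whose levels followed each small heat shock gene most closely over the 28 mutant libraries differed between members. For *Hsp22* they were *puml* (r = 0.84), *MME1* (0.82) and *CG7791* (0.81), and these were the same 3 genes without the library with ovary transcripts. For *Hsp26* they were *fzy* (0.94), *Phf7* (0.92) and *feo* (0.92), and for *Hsp27* *BigH1* (0.97), *RpS5b* (0.97) and *Paf-AHalpha* (0.95). Without that library, *fzy* remained among the first 3 for *Hsp26* (0.82) and *BigH1* for *Hsp27* (0.93), while the others did not. For *Hsp23* they were *CG17129*, *CG14252* and *hll* (0.69 to 0.71), for *Hsp67Ba* *CG10185*, *CG2225* and *CG14329* (0.74 to 0.78), and for *Hsp67Bb* *Rab9D*, *ord* and *CG3061* (0.66 to 0.79). *Hsp67Bc* had the loosest neighbours, *grim*, *Pcyt1* and *Inos* (0.60 to 0.64), and *l(2)efl* was followed by *aspr*, *CG5023* and *CG15083* (0.72 to 0.78). Without the library with ovary transcripts, the first gene was *Hsp26* for *Hsp23* (0.73) and *Rcd1* for *Hsp67Ba* (0.80), and *RfC4* (0.71) and *Alr* (0.69) entered for *Hsp67Bb*, *eIF2Bgamma* (0.62) for *Hsp67Bc* and *CG13177* (0.79) for *l(2)efl*. These correlations are maxima over all genes and are given as a description.

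Other genes of the same pathway were compared in the same fits. Of 5 further alpha-crystallin genes, *CG43851* rose in group 4 (0.89, adjusted p = 0.0426) and in group 2 (1.01, adjusted p = 0.0391), and had 0.87 in group 3 (adjusted p = 0.0557). *CG4461*, which lies between *Hsp22* and *Hsp26* in the cluster at 9375430 to 9376293 on 3L, fell in group 3 (-0.65, adjusted p = 0.0371) and had -0.50 in group 4 and -0.58 in group 2 (adjusted p = 0.0967 and 0.0804). It thus had the sign opposite to that of its neighbours. *CG14207*, which encodes HspB8, had -0.10, -0.01 and -0.19 in groups 4, 3 and 2 and passed in none. Median log2 fold changes of the 5 genes were -0.10, -0.01 and -0.19 in groups 4, 3 and 2.

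Of 22 tested genes of the cytosolic heat shock response and its co-chaperones, 8 rose in group 4, 9 in group 3 and 6 in group 2, and 0 fell, where 17.5%, 14.2% and 10.7% of all genes rose in these groups. Their median log2 fold change was 0.39 in group 4 and 0.40 in each of groups 3 and 2. In group 4 the smallest p-values were those of the Hsp90 co-chaperone gene *p23* (0.66, adjusted p = 0.00162), the Hsp40 genes *DnaJ-1* (0.50, adjusted p = 0.00296) and *mrj* (0.65, adjusted p = 0.00758), and *Sgt* (0.69, adjusted p = 0.00908). *Hsf*, *Hsp83* and *stv* had -0.09, 0.23 and 0.00 in group 4 and did not pass (adjusted p = 0.778, 0.408 and 0.993). The heat-inducible *Hsp68* had 0.65, 0.66 and 0.71 in groups 4, 3 and 2 and was called in each (adjusted p = 0.0295, 0.0341 and 0.0305). The list also holds the near-identical *Hsp70* copies, whose separate values are uncertain. *Hsp70Aa* averaged 38.7 ± 30.4 CPM in group 4, 45.2 ± 61.1 CPM in group 3 and 14.3 ± 16.6 CPM in group 2, against 0.27 ± 0.03 CPM in group 1, and was called in groups 4 and 3 (adjusted p = 0.0191 and 0.0212) but not in group 2 (adjusted p = 0.062). In group 3, *Hsp70Bb* had 2.60 (adjusted p = 0.0479) and *Hsp70Bc* 2.39 (adjusted p = 0.0339), while *Hsp70Ab* had 3.04 and did not pass (adjusted p = 0.0862). *Hsp70Bc* was also called in groups 4 and 2 (2.12 and 2.51, adjusted p = 0.0444 and 0.0351). *Hsp70Bb* was not called there (adjusted p = 0.0599 and 0.054).

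Ecdysone is the moulting hormone that can induce the 67B genes. Of 17 tested genes of its response, 0 rose, and 4, 3 and 2 fell in groups 4, 3 and 2, where 15.7%, 12.3% and 9.52% of all genes fell. In group 4 these were *MsrA*, also named *Eip71CD* (-1.93, adjusted p = 1.97e-12), *Eip63F-1* (-0.99, adjusted p = 0.000214), *ImpE1* (-2.30, adjusted p = 0.0144) and *Eip75B* (-0.73, adjusted p = 0.0176). Median log2 fold changes of the list were -0.35, -0.18 and -0.18 in groups 4, 3 and 2.

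Markers of some other tissues also differed between mutants and controls. Summed levels of 9 midgut genes were 514 to 3031 CPM in the 28 mutant libraries, against 4124 and 12336 CPM in the controls, and 8 of the 9 fell in each mutant group. For 10 photoreceptor genes the sums were 1836 to 6773 CPM in mutants, against 6959 and 15422 CPM in controls, and 10, 10 and 9 fell in groups 4, 3 and 2. Of 12 testis and male tract genes, 9, 7 and 1 rose in groups 4, 3 and 2 and 1 fell in each. Their sums were 5187 to 11397 CPM in mutants against 5944 and 8074 CPM in controls. Of all genes, 17.5%, 14.2% and 10.7% rose and 15.7%, 12.3% and 9.52% fell in groups 4, 3 and 2. Where only 1 testis gene was called, the count was not above these shares. Of 9 flight muscle genes, 0 passed in any group with edgeR, and their sums were 4539 to 23046 CPM in mutants against 5878 and 23240 CPM in controls. None of the genes of these 4 lists was at 0 in all libraries of a group. The part of these tissue differences in the changes of the small heat shock genes was not tested.

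Among the 28 mutant libraries, 48 relations of the 8 genes with depth and with the summed tissue lists were computed. Of these, 1 passed in both coefficients, that of *Hsp67Ba* with the photoreceptor list (r = 0.53, permutation test, adjusted p = 0.048; rho = 0.52, permutation test, adjusted p = 0.046), with r = 0.48 without the 2 libraries farthest in that list and 0.27, 0.65 and 0.70 within groups 4, 3 and 2. *Hsp27* followed the testis list by rank (rho = 0.53, permutation test, adjusted p = 0.046; r = 0.10, permutation test, adjusted p = 0.88), with r = 0.77 without replicate 4 of group 4. It ran against the flight muscle list by rank as well (rho = -0.63, permutation test, adjusted p = 0.022, and r = -0.48, permutation test, adjusted p = 0.076). Against the midgut and photoreceptor lists its rho was -0.57 each (permutation test, adjusted p = 0.035 each). The r was -0.43 and -0.32 there (permutation test, adjusted p = 0.076 and 0.3). By Pearson's r alone, *Hsp26* and *Hsp27* passed with the ovary list (r = 0.82 and 0.87, permutation test, adjusted p = 0.048 each). Without replicate 4 of group 4 these r were 0.25 and 0.36. *l(2)efl* passed by r alone against the photoreceptor list (r = -0.54, permutation test, adjusted p = 0.048). *Hsp22* had no relation past the threshold with total counts or with any of these lists, with r between -0.08 and 0.21.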

How the data were processed

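The deposited table holds whole-number counts per gene for 30 libraries. According to the study's methods and the labels, the authors prepared ribosome-depleted stranded libraries, trimmed reads with fastp and quantified them with kallisto on the BDGP6.46 transcripts. The submitters' processing notes name another version of kallisto (0.45.0) than the methods and a human genome build, GRCh38, whereas the table holds fly genes. The methods state that abundances were turned into length-scaled counts with tximport for their limma analysis, but not whether the deposited counts are those values.

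Counts were tested with edgeR 4.0.16 in R 4.3.3 (filterByExpr, TMM factors, robust quasi-likelihood F-test, Benjamini-Hochberg adjustment over 13190 genes, threshold 0.05), with all 30 libraries in 1 fit. Standard errors were derived from the log2 fold change and its F value, and intervals span 2 standard errors each way. CPM were counts over TMM-scaled library sizes. The F-test and the comparison of flying with non-flying mutants came from a second fit. It had 1 coefficient each for controls, flying mutants and non-flying mutants. The F-test took 2 contrasts together. These were flying against non-flying mutants, and controls and flying mutants, weighted equally, against non-flying mutants. The fit was tested on simulated counts. Levels per kilobase used the mean transcript length of the BDGP6.54 annotation, in Python 3.11.15.

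The 8 genes and the lists of other genes were chosen with earlier results of these data known. All 8 are named, with up to 4 genes of smallest p from each list of related genes and the 3 genes of highest correlation for each member. The genes named for single libraries, *Hsf*, *Hsp83*, *stv*, *Hsp68*, the *Hsp70* copies and *CG14207* in the comparisons, and the libraries themselves were chosen after their values were seen. Permutation p-values of correlations (100000 permutations, pseudocount 1 on CPM) were added after the data were seen.

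Alternatives were DESeq2 1.42.0, limma-voom 3.58.1, relative log expression size factors, no filter, the tissue label as a covariate or its 6 deviating libraries left out, only the groups compared, and each library left out. The sum of *Hsp22* and *Hsp67Bb* was chosen after seeing the data. No source ties libraries to separate parent pairs one by one, so p-values measure the spread between pools.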

Additional observations from a re-analysis of the deposited data

Results flagged for a closer look

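In 6 of the 24 combinations of gene and mutant group, 1 library was far from the others of its group. Its gap to the next library, over the range of the group, exceeded 0.466 among 10 libraries or 0.526 among 8. The combinations are not independent, since the same libraries recur, and the share of all genes flagged in this way was not computed. *Hsp26* in replicate 4 of group 4 was at 617 CPM, with the next library at 169 CPM, and *Hsp27* in the same library was at 467 CPM, with the next at 149 CPM. In replicate 1 of group 2, *Hsp23* was at 221 CPM (next 113), *Hsp67Bb* at 121 CPM (next 91.1) and *Hsp67Bc* at 11.8 CPM (next 6.4). *Hsp23* in replicate 6 of group 4 was at 141 CPM, with the next library of the group at 90.4 CPM.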

How the results depend on the processing

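*Hsp22* kept its rise in groups 4, 3 and 2 under every alternative run. Other counts of called genes moved. Leaving out each library in turn gave 1 to 5 called genes in group 4, 2 to 5 in group 3, 2 to 6 in group 2, 2 to 6 in all mutants and 1 to 5 in the F-test, and 0 in each comparison between mutant groups. Without the 6 libraries labelled human skin, 2 genes were called in group 2 and 2 in all mutants, and with only the groups compared, 6 were called in group 3. The cause was not tested, and the shares of all genes called in these fits are not given. Beside the leave-one-out fits, 10 calls of single genes were lost, 15 were gained and 5 values turned in sign. Those 5 were *Hsp22* (-0.0031) and *Hsp67Bc* (0.0032) in group 3 against group 2 with limma-voom, *Hsp67Bc* there with the tissue label as a covariate (0.0052) and without the libraries labelled human skin (0.063), and *Hsp26* in flying against non-flying mutants with DESeq2 (-0.064). No value that turned in sign was called. Leaving out single libraries turned some signs, with these ranges of the log2 fold change. In group 3 against group 2 they were -0.16 to 0.32 for *Hsp22*, -0.40 to 0.058 for *Hsp23*, -0.17 to 0.080 for *Hsp26*, -0.019 to 0.10 for *Hsp27*, -0.10 to 0.030 for *Hsp67Ba* and -0.11 to 0.17 for *Hsp67Bc*. In group 4 against group 2 they were -0.48 to 0.011 for *Hsp23* and -0.10 to 0.47 for *Hsp26*. In group 4 against group 3 they were -0.21 to 0.073 for *Hsp23*, -0.0080 to 0.45 for *Hsp26*, -0.11 to 0.0014 for *Hsp67Ba* and -0.081 to 0.012 for *Hsp67Bb*. In flying against non-flying mutants the range was -0.049 to 0.42 for *Hsp26*. Against group 1, *Hsp67Ba* had -0.11 to 0.23 in group 4, -0.054 to 0.28 in group 3, -0.00046 to 0.33 in group 2 and -0.055 to 0.28 in all mutants. *l(2)efl* had -0.31 to 0.20 in group 4, -0.43 to 0.075 in group 3 and -0.46 to 0.048 in all mutants. The 2 control libraries limit every comparison with group 1, and *Hsp67Bc*, with 41 to 281 counts per library, has the largest counting error. No paired analysis was possible because the labels carry no replicate numbers that tie libraries of different groups.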
